A study of Mus musculus with 8 samples.

Results

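The response of conventional CD4 T cells to a CD70 transgene was examined as the set of genes whose level differed between Tconvs of CD70 transgenic mice and Tconvs of control mice. A gene entered if 2 or more of the 4 Tconv libraries had it at 60 or above and its row was not named after a genomic clone, which left 11650 of the 52636 rows of the table. Tconvs were CD4+ Foxp3- cells sorted from the spleen of Foxp3eGFP reporter mice of 6 to 8 weeks, 200000 cells a sample, after magnetic removal of CD25+ cells and of several other lineages, CD8β+ and CD49b+ cells among them. The CD70Tg group was CD11c-Cd70tg;CD27+/- and the control group CD27+/- without the transgene, so that both groups carried 1 intact copy of Cd27. The transgene is driven by the CD11c promoter, which is active mainly in dendritic cells, so that CD70 is shown to the Tconvs by other cells. There were 2 libraries in each group, named here by their columns as control F1 and F3 and CD70Tg F2 and F4. Whether each came from 1 animal or from a pool is not given in the sources used here, so that the p-values measure the spread between these libraries. The table calls the control columns KO and the sample descriptions call them WT. Tregs of the same 2 genotypes, 4 libraries of 8 in all, were used to estimate the spread and for 1 comparison.

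CD27 is a receptor of the TNF receptor family that is present on naive T cells, and CD70 is its only known ligand. In the absence of stimulation little CD70 is present in lymphoid tissue. CD27 recruits TRAF adaptors, feeds into NF-κB signalling and acts as a costimulatory signal that supports survival and effector differentiation.

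Values are reads per 20 M (M for mega), rounded up to whole numbers by the authors. From the smallest steps between values, F1, F3, F2 and F4 held about 19.88, 9.56, 6.94 and 33.33 M reads on genes, of which the first and the last are less certain since their steps are close to or under 1. The CD70Tg libraries therefore were the shallowest and the deepest of the 4. Cd4 was high in all of them, between 25914 and 31244, and the 16 genes of a list of conventional CD4 T cell genes (Cd3e, Trac, Lck and others) had 0 calls. Foxp3 lay between 1039 and 1497 in the Tconvs and between 19769 and 21367 in the Tregs. Cd27 itself did not differ in RNA, with 3239 and 2980 in controls and 3129 and 3359 in CD70Tg Tconvs. The paper reports, without showing the data, that CD27 on all T lymphocytes was strongly lowered by its engagement. Cd70 had 4 and 3 in controls and 15 and 28 in CD70Tg Tconvs, under the minimum for the test. Library F4 stood somewhat apart. Its 84 cytosolic ribosomal protein genes summed to 977280, against 1368703 in F1, 1805423 in F3 and 1645381 in F2, and 8807 of the 11650 genes (75.6%) were higher in F4 than in F2, by a median of 0.17 on the log2 scale. With TMM factors that median was 0.00. What sets the libraries apart was not tested.

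Of the 11650 genes, 464 (3.98%) were called higher and 62 (0.532%) lower in CD70Tg Tconvs, 4.52% together, with limma at an adjusted p-value under 0.05 and a log2 fold change over 1 in size. Without the fold threshold the calls were 826 higher (7.09%) and 250 lower (2.15%), 9.24% together. More than 4-fold changes were found for 176 of the higher and 7 of the lower genes, and more than 8-fold changes for 72 and 2. In all 464 both CD70Tg libraries exceeded both controls and in all 62 both were below them, patterns that 23.3% and 21.7% of all tested genes showed. For 276 of the 464 the weaker CD70Tg library was still over 2-fold above the higher control library, and for 34 of the 62 the higher CD70Tg library was over 2-fold below the lower control. These counts depend on the libraries. Without F4 they were 255 higher and 38 lower, and without F1 495 and 35. In such bulk samples, a change in RNA per cell and a change in the share of cells that hold the RNA cannot be told apart.

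**Figure D1:**
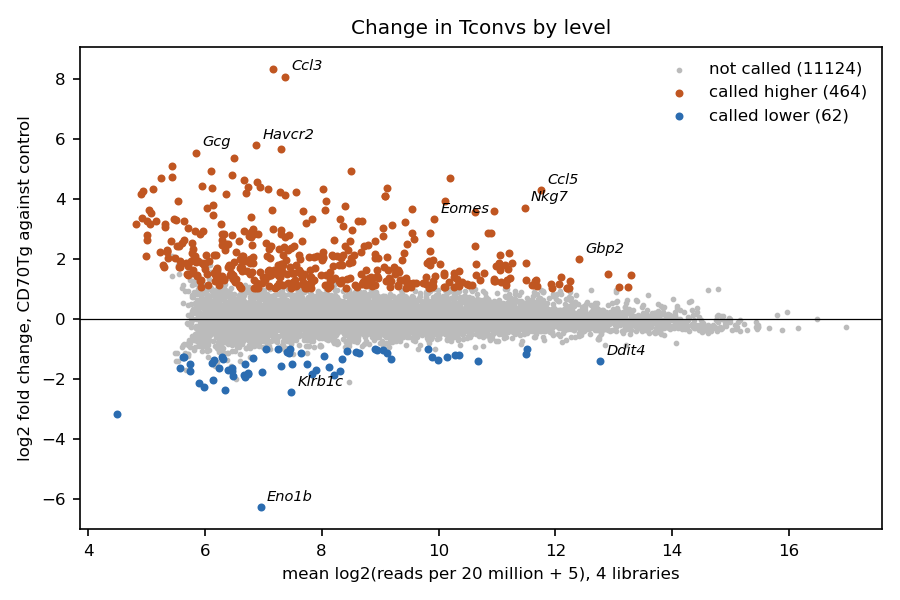
Log2 fold change of each of the 11650 tested genes (vertical axis, CD70Tg against control Tconvs) against its mean log2(value + 5) over the 4 libraries (horizontal axis). The 464 genes called higher reach 8.32 and the 62 called lower reach -6.27, and most called genes lie above 0 at every level.

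The 5 genes by which this response is marked all rose. Eomes, a T-box factor of cytotoxic and memory T cells, had 352 and 258 in controls and 2807 and 3386 in CD70Tg Tconvs, a log2 fold change of 3.33 ± 0.19 (SE, limma, adjusted p = 3.4e-09). Havcr2, which encodes the inhibitory receptor TIM-3 (chr11:46454935-46481255, GRCm38), went from 13 and 9 to 666 and 1123. Adgrg1, the adhesion receptor GPR56 of cytotoxic lymphocytes (chr8:94974751-95014217), went from 26 and 11 to 1067 and 1179. For the protease Gzmb (chr14:56258838-56262260) the values were 72 and 51 against 1323 and 2941. Il10, an anti-inflammatory cytokine (chr1:131019845-131024974), had 30 and 3 against 340 and 629. The groups were far apart for each of the 5, with log2 fold changes of 5.78 ± 0.30 for Havcr2, 5.66 ± 0.34 for Adgrg1, 4.91 ± 0.29 for Gzmb and 4.80 ± 0.48 for Il10 (adjusted p between 1.3e-09 and 2.9e-06), and none of these calls was lost in any alternative that was run.

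**Figure D2:**
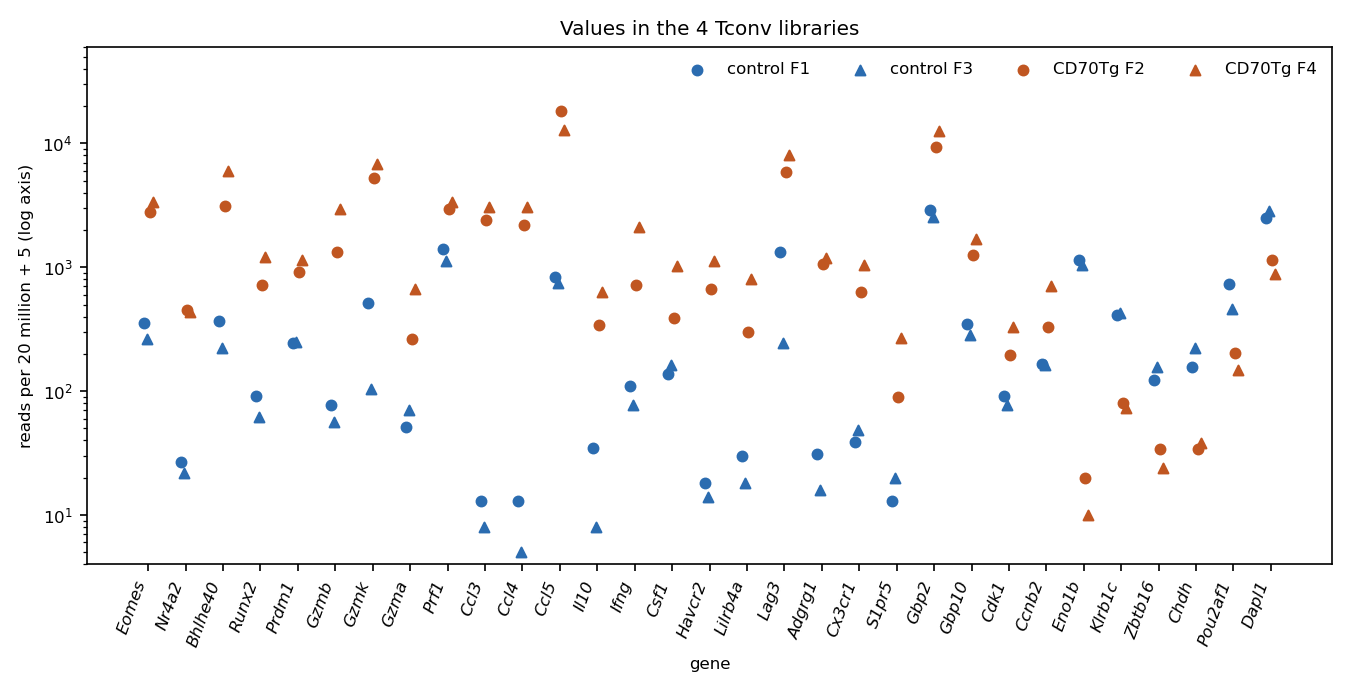
Values in each of the 4 Tconv libraries (vertical axis, reads per 20 M + 5, log axis) for 31 named genes, grouped by role from transcription factors on the left to genes that fell on the right. Circles and triangles of 1 colour are the 2 libraries of a group, and the 2 colours do not overlap for any gene shown.

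A part of the transcription factors of effector cells rose alongside Eomes. Of 35 tested members of a list of such factors, 9 were called higher and 1 lower, with a median log2 fold change of 0.70 against 0.00 for all genes tested. The count of higher factors was 14 without F1, 15 without F2 and 6 without F4. Nr4a2, an orphan nuclear receptor induced by T cell receptor signals, rose from 22 and 17 to 447 and 428 (log2 fold change 4.18 ± 0.29, adjusted p = 3.7e-08). Bhlhe40, which supports cytokine production, rose from 366 and 216 to 3127 and 5936. The values of Runx2 were 87 and 57 against 715 and 1214, and those of Prdm1, which encodes Blimp-1, 239 and 245 against 911 and 1129. These factors did not overlap between groups and kept their calls in every alternative run. Unlike Nr4a2, Nr4a1, Nr4a3, Egr1, Egr2 and Egr3 of the same list did not rise and were not called. Their log2 fold changes were -0.57, -0.45, -0.45, -0.29 and -0.87, the last with an adjusted p-value (limma) of 0.0064. Tbx21, which encodes T-bet, was not called either. It had 819 and 635 in controls, 848 in F2 and 2368 in F4 (log2 fold change 0.97 ± 0.31, adjusted p = 0.063), so that only F4 stood clearly above the controls. Cebpa, a myeloid factor, was the member called lower, with 389 and 70 against 35 and 48, and it was not called without F1, where its highest value lies, nor without F2 or F4.

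Chemokines gave the largest increases in the table. Ccl3 had 8 and 3 in controls and 2415 and 3050 in CD70Tg Tconvs (chr11:83647844-83649355, log2 fold change 8.06 ± 0.40, adjusted p = 1.0e-09). Ccl4, its neighbour (chr11:83662584-83664683), had 8 and 0 against 2170 and 3068 (8.32 ± 0.52, adjusted p = 1.1e-08). Both are chemoattractants made by activated T and NK cells. Ccl5, which attracts T cells and monocytes, was already present in controls at 823 and 743 and reached 18091 in F2 and 12896 in F4 (4.28 ± 0.25). Of 13 chemokine genes listed, 5 passed the minimum and these 3 were called, whereas Xcl1 had 123 and 172 against 139 and 184 and Cxcl10 had 193 and 40 against 64 and 242. Ccl17, Ccl20 and Ccl22 stayed at 3 or less in every Tconv library.

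Cytokine genes were mostly low. Of 26 listed, 10 passed the minimum, and Il10, Ifng and Csf1 were called higher, with 0 called lower. Ifng, the defining cytokine of type 1 cells, had 105 and 72 in controls, 718 in F2 and 2111 in F4 (log2 fold change 3.75 ± 0.39, adjusted p = 5.6e-06). In exon length, 25.9% is shared with another annotated gene, Gm49751. Csf1, a growth factor of macrophages, went from 132 and 157 to 387 and 1024. Tnf, by contrast, had 422 and 335 against 222 and 652, with the controls lying between the CD70Tg libraries. Il21, a cytokine of follicular helper cells, had 493 and 74 against 283 and 686 and was not called. The values of Il4 were 22 and 24 against 9 and 15, and those of Il2 21 and 38 against 9 and 26. Il5, Il13, Il17a, Il17f and Il22 stayed at 4 or less in the 4 libraries.

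Granule genes formed one of the clearest groups. Of 19 tested, 11 were called higher and 0 lower, with a median log2 fold change of 1.06. Gzmk, a granzyme of memory-like T cells, had 506 and 99 in controls and 5259 and 6797 in CD70Tg Tconvs (4.70 ± 0.55, adjusted p = 1.8e-05). The controls themselves differed about 5 times here, while the groups stayed far apart. Nkg7, a membrane protein needed for degranulation, rose from 744 and 829 to 9624 and 10964 (3.70 ± 0.16, adjusted p = 6.2e-10). Gzma went from 46 and 65 to 257 and 661, and Prf1, the pore-forming perforin, from 1389 and 1120 to 2971 and 3335. Fasl, a death ligand, had 408 and 386 against 784 and 868 and was not called without F3 or F4. Protease inhibitors of the serpin family rose as well. Serpina3g, which is known to inhibit lysosomal cathepsins, had 583 and 358 against 4233 and 6873 (3.55 ± 0.20), and Serpinb6b had 298 and 388 against 842 and 1381. Across the whole serpin family, which was examined after values had been seen, 5 of 9 tested genes were called higher and 0 lower, Serpina3f, Serpinb1a and Serpinb9 being the other 3, and without F4 the count was 3.

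Inhibitory receptors were among the genes with large increases. Of 18 inhibitory receptor genes tested, 9 were called higher and 0 lower (median 1.02). After Havcr2, the largest increases were those of Lilrb4a, an inhibitory leukocyte immunoglobulin-like receptor (25 and 13 against 294 and 803), Klrg1 (38 and 76 against 479 and 1027) and Lag3 (1331 and 239 against 5818 and 8013). The value of Lag3 in F1 was over 5 times that in F3, yet under that of both CD70Tg libraries. Entpd1, the ectonucleotidase CD39, rose from 133 and 124 to 1046 and 1573 (3.27 ± 0.17, adjusted p = 1.5e-09). Tigit had 1274 and 360 against 3037 and 4315. Lilrb4a shares 35.9% of its exon length with other annotated genes, and its neighbour Lilr4b (11 and 5 against 257 and 544) and the read-through row ENSMUSG00000062593 (25 and 9 against 283 and 874) lie in the same stretch of chromosome 10, so that these 3 increases are not independent. Of 21 costimulatory receptor and TNF family genes, Slamf7, Tnfrsf1b and Tnfrsf4 were called higher and 0 lower (median 0.27). Without F2 the count was 5. The call of Tnfrsf1b was lost without F3 and that of Tnfrsf4 without F3 or F4. Whether the 2 lists differ was not tested.

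Receptors for cytokines were split. Of 28 tested, 9 were called higher and 0 lower, while the median of the list was 0.06, close to that of all genes. Il1rl1, the IL-33 receptor ST2, had 37 and 28 against 196 and 389 (2.92 ± 0.27, adjusted p = 1.6e-06). Il12rb1, a chain of the IL-12 receptor, had 483 and 448 against 1300 and 2465, and Il18rap, of the IL-18 receptor, 482 and 503 against 1061 and 2772. The IL-10 receptor chain Il10ra rose from 1278 and 1133 to 3369 and 4140. Il15ra and the decoy receptor Il1r2 were also called. Il7r was level, at 7964 and 10915 in controls and 11436 and 7653 in CD70Tg Tconvs.

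Genes of migration and adhesion changed in both directions. Of 19 chemokine and egress receptor genes, 9 were called higher and 1 lower (median 0.58), and without F4 the counts were 5 and 0. Cx3cr1, the fractalkine receptor of circulating cytotoxic cells, had 34 and 44 against 629 and 1042 (4.22 ± 0.32, adjusted p = 1.2e-07). Ccr2 had 331 and 528 against 1415 and 2867 and Cxcr6 1056 and 1388 against 3095 and 5738, the latter not being called without F4. S1pr5, an egress receptor, had 8 and 15 in controls, 84 in F2 and 262 in F4 and was likewise lost without F4. Ccrl2 rose from 44 and 40 to 153 and 187. Cxcr4 was the member called lower, with 4497 and 4154 against 2568 and 1422, and lost its call without F4. The lymph node receptor gene Ccr7 (17030 and 17109 against 14184 and 10025) was not called. Of 24 integrin and adhesion genes, 8 were called higher and 0 lower, with 5 higher without F4. Cd38 had 113 and 141 against 793 and 1302, Itgae 63 and 107 against 277 and 315, and Itga1 24 and 30 against 122 and 294, the last not being called without F4. Among 11 matrix genes, Adam8, Lamc1, Adam19 and Lamb3 were called higher, the last not without F3 or F4. The metalloprotease Adam19 rose from 1648 and 1375 to 4616 and 6622.

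Enzymes that build the sugar and sulfate groups of cell surface glycans were a class that the fixed lists did not hold. It was picked after values had been seen and is described without a test. Of 43 tested glycosyltransferase and sulfotransferase genes, 11 were called higher and 0 lower, with a median of 0.26. The chondroitin sulfotransferase Chst11 rose from 54 and 53 to 845 and 1594 (4.32), and Chsy1, a chondroitin synthase, from 352 and 327 to 1980 and 3169 (2.87). Chst2, another sulfotransferase, had 314 and 273 against 1366 and 2000. Fut7 and Gcnt1, which act in the synthesis of selectin ligands, had 32 and 28 against 116 and 190 and 53 and 28 against 124 and 116. Without F4, 5 of the 43 were called higher, and without F3 6.

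Interferon γ-induced GTPases, which restrict intracellular pathogens, rose as a group. Of 20 tested, 14 were called higher and 0 lower, 18 had an adjusted p-value under 0.05 with a higher level, and the median log2 fold change was 1.26. Gbp2 had 2897 and 2537 against 9266 and 12535 (1.99 ± 0.14, adjusted p = 5.9e-08), Gbp3 480 and 486 against 1571 and 2256, and Gbp5 965 and 578 against 2017 and 2569. Gbp10, which shares 46.3% of its exon length with Gm43302, had 343 and 281 against 1242 and 1690. Iigp1 rose from 1579 and 1024 to 4561 and 4731. Between 13 and 14 of the 20 were called when any 1 of the 4 libraries was left out. Of 44 other interferon-stimulated antiviral genes, 14 had an adjusted p-value under 0.05 with a higher level, against 7.09% of all tested genes. Both CD70Tg libraries lay above both controls in 25 of the 44, against 23.3% of all tested genes. With the fold threshold, 3 of the 44 were called higher and 0 lower (Oasl2, Sp140 and Mx1, median 0.39). The count was 7 without F2 and 5 without F1. Each of the 3 calls was lost without F3 and without F4, and that of Mx1 also without F1 and with TMM or median-of-ratios factors. Among 22 genes of MHC class I presentation, H2-Q6 and Nlrc5 were called, the latter not with TMM or median-of-ratios factors, with limma-voom, or without F1 or F4, but 14 had an adjusted p-value under 0.05 with a higher level and the median was 0.50. H2-Q6, of a family of near-identical genes, had 5208 and 3991 against 11577 and 13911.

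The promoters of these GTPases were read from RefSeq (GRCm38.p6), 250 bases before to 50 bases after the first start site listed for each gene. Of the 20 tested GTPases 13 had a promoter in the table, and 11 of these (84.6%) held the interferon-stimulated response element on either strand, searched as a pair of GAAA half-sites with any 2 bases between them, against 275 of the 8358 promoters of all tested genes (3.29%). The γ-activated site TTCNNNGAA was found in 6 of the 13 (46.2%) and in 6.99% of the 8358. No match of one motif shared bases with a match of the other in these 13. The other antiviral genes, few of which were called, held the response element in 17 of 32 promoters (53.1%). The promoters of the called genes Gbp2, Gbp3 and Gbp5 are shown, 5′ to 3′, as examples of the motif among genes named above. Capitals mark the response element or its reverse complement.
Gbp2, chr3:142620413-142620712, plus strand: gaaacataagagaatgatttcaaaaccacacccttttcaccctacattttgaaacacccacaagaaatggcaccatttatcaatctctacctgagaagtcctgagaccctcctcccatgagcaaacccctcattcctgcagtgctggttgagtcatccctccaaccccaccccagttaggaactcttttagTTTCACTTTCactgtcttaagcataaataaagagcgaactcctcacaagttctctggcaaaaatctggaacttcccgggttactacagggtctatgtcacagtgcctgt
Gbp3, chr3:142559794-142560093, plus strand: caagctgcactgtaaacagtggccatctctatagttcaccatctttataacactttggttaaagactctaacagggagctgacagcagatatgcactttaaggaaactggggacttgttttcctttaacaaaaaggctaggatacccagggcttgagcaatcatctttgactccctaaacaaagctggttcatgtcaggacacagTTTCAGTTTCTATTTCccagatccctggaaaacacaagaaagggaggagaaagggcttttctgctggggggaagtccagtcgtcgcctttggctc
Gbp5, chr3:142496684-142496983, plus strand: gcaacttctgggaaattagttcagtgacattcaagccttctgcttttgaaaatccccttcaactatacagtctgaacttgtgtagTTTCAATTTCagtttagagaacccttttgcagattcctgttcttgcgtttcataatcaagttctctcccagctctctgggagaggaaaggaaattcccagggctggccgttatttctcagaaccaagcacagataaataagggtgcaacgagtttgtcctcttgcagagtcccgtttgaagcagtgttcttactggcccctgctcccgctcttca

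In all 3 sequences the match lies on the strand opposite to the gene, and the 2 matches of Gbp3 overlap each other. A match describes letters and is not evidence of a factor bound there. Among all 464 genes called higher, 307 had a promoter, of which 28 (9.12%) held the response element and 47 (15.3%) the γ-activated site. Among the 42 promoters of genes called lower, 0 held either. The T-box site AGGTGTGA was present in 1 of 11 promoters of called granule genes and in 0.873% of the promoters of tested genes, and the AP-1 site TGANTCA in 28 of the 307 promoters (9.12%) and in 4.4%.

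Of 8 tested genes of MHC class II presentation, Cd74, the invariant chain, and H2-Oa were called higher and 0 lower, and without F2 the count was 6. Cd74 had 801 and 1509 in controls, 2651 in F2 and 5290 in F4. H2-Oa, of a regulator of peptide loading, went from 130 in both controls to 277 and 319. H2-DMa, which helps to load peptides, had 892 and 802 against 1438 and 1848 (0.94, adjusted p = 0.00048), under the fold threshold. For H2-Aa, a chain of the class II molecule itself, the values were 263 and 549 against 421 and 978, F2 lying between the controls, and it was not called. The list of 13 dendritic cell genes was read beside it. It summed to 2208 and 2493 in controls and to 2699 and 3516 in CD70Tg Tconvs, Itgax (not without F1 or F4) and Dnase1l3 were called higher, and 9 of its 13 genes did not reach the minimum. Xcr1, a receptor of cross-presenting dendritic cells, had 7 and 26 against 49 and 56, while Flt3, Zbtb46, Clec9a and Siglech had at most 38 in any library, Siglech being at 0 in F2. Cells with CD11c or MHC class II on their surface had also been targeted by the magnetic removal before the sort. The part of dendritic cells in the class II values was not tested.

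Genes of cell division gave calls that rested largely on F4. Of 38 mitosis genes tested, 17 were called higher and 0 lower (median 1.00), and both CD70Tg libraries lay above both controls in 34, against 23.3% of all genes. Cdk1, the mitotic kinase, had 86 and 72 in controls, 191 in F2 and 326 in F4 (1.61 ± 0.34, adjusted p = 0.0046), a call lost without F4. Ccnb2, one of its cyclins, had 160 and 157 against 323 and 706, and Kif11, a spindle motor, 98 and 109 against 222 and 419. The median gap of F4 over F2 was 0.89 in this list on the log2 scale, and 37 of the 38 genes were higher in F4. With F4 left out, 3 of the 38 were called, with F3 left out 10 and with F2 left out 27. Genes of DNA replication gave 6 calls of 32, all higher (median 0.49). Tk1 had 86 and 88 against 202 and 366, and Dtl, not called without F3 or F4, 63 and 26 against 116 and 205. Of these 32, 1 was called without F4, 3 without F3 and 10 without F2.

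The cell cycle homology region TTTGAA, an element of promoters that are active in late cell cycle, was searched in the same windows. It was found on either strand in 25 of the 32 mitosis genes with a promoter (78.1%), against 11.8% of the promoters of all tested genes, and in 11 of the 15 that were called (73.3%). The E2F site TTTGGCGC was in 1 of the 32. The promoters of Cdk1, Ccnb2 and Kif11 are shown with the element or its reverse complement in capitals.
Cdk1, chr10:69352863-69353162, minus strand: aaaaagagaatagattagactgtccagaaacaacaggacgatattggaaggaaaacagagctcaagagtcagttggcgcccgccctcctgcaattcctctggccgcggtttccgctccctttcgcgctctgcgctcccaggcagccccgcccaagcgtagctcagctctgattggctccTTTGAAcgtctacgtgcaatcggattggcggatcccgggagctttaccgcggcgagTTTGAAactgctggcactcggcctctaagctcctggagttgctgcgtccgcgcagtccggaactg
Ccnb2, chr9:70421505-70421804, minus strand: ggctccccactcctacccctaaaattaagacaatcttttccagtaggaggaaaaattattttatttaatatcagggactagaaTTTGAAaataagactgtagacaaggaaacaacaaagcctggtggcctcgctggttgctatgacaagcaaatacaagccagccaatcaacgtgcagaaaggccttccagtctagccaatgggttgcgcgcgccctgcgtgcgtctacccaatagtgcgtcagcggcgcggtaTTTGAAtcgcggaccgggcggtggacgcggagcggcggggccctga
Kif11, chr19:37376132-37376431, plus strand: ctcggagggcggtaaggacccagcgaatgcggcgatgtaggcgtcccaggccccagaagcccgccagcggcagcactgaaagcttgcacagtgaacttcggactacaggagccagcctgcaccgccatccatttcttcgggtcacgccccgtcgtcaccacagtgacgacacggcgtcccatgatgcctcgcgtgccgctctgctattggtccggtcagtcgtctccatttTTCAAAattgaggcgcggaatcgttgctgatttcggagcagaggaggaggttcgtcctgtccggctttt

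Genes of signalling and survival gave a mixed picture. Of 38 genes of calcium signalling and T cell receptor feedback, 5 were called higher and 0 lower, with 3 without F3 or F4 and 11 without F2. Socs3 and Nfkb1 were the calls lost without F3 or F4. Rgs1 and Rgs16, which shorten signals of G protein-coupled receptors, had 184 and 268 against 750 and 1357 and 179 and 49 against 752 and 1326. Dusp4, a phosphatase of MAP kinases, went from 75 and 49 to 153 and 228. Of 19 genes of the BCL2 family and of cell death, 5 were called higher and 0 lower. Pmaip1, which encodes the death-promoting protein NOXA, rose from 68 and 55 to 338 and 605 (2.79 ± 0.28, adjusted p = 2.9e-06). The inflammatory caspases Casp1 (277 and 145 against 1095 and 1729) and Casp4 (204 and 97 against 623 and 962) rose as well. In a set of 20 p53 targets put together after values had been seen, 6 were called higher and 0 lower, Cdkn1a among them with 50 and 17 against 113 and 322, but 1 of the 20 was called higher without F4. Jun, a subunit of AP-1, had 245 and 450 against 675 and 2475.

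S100 proteins, annexins and the related cytoskeletal genes rose in part. Of 17 tested, 6 were called higher and 0 lower (median 0.79), and without F4 the count was also 6. Lgals3, the galectin-3 gene, rose by a log2 fold change of 3.12 ± 0.26, to 1147 in F2 and 2625 in F4, and S100a4, a calcium-binding protein of memory T cells that shares 51.7% of its exon length with Gm42674, 686 and 731 against 4576 and 5778 (2.85 ± 0.13). Anxa2 rose from 1424 and 1197 to 3320 and 5200.

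Several of the largest increases lay outside the lists. Gcg, which encodes proglucagon, the precursor of glucagon and GLP-1, had 4 and 3 in controls, at or under the value of 3 reads, and 317 and 471 in CD70Tg Tconvs, an at least 71.6-fold higher level when set against 3 reads in each control library. Enpp6, a choline phosphodiesterase known from oligodendrocytes, had 2 and 3 against 170 and 207, at least 34.3-fold higher. Wdr95 had 4 and 3 against 173 and 277, at least 40.9-fold higher. Gas7, a cytoskeletal adaptor, had 15 and 5 against 459 and 717 (5.35 ± 0.39). The neuronal calcium sensors Kcnip3 (6 and 0 against 225 and 275) and Ncald (20 and 19 against 476 and 682) rose by 5.10 and 4.55. Ifitm1, of the interferon-induced transmembrane proteins, had 10 and 7 in controls, 168 in F2 and 462 in F4 and was not called without F4. In each of these 7 genes both CD70Tg libraries were far above both controls.

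Some of the 464 rows rest on the same reads. The 22 genes of the protocadherin γ cluster share their last exons, and all 22 were called higher, with log2 fold changes between 1.13 and 1.74. Their values thus count as 1 observation, and 11 of the 22 were called without F3 and 1 without F4. Gm15459 and Gm26825 had identical values in every library (117 and 137 against 2945 and 1713). With 1 row kept of each identical set, 463 genes were higher and 62 lower. Gm45717 lies within exons of the Ifitm locus, and Junos overlaps Jun.

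**Figure D3:**
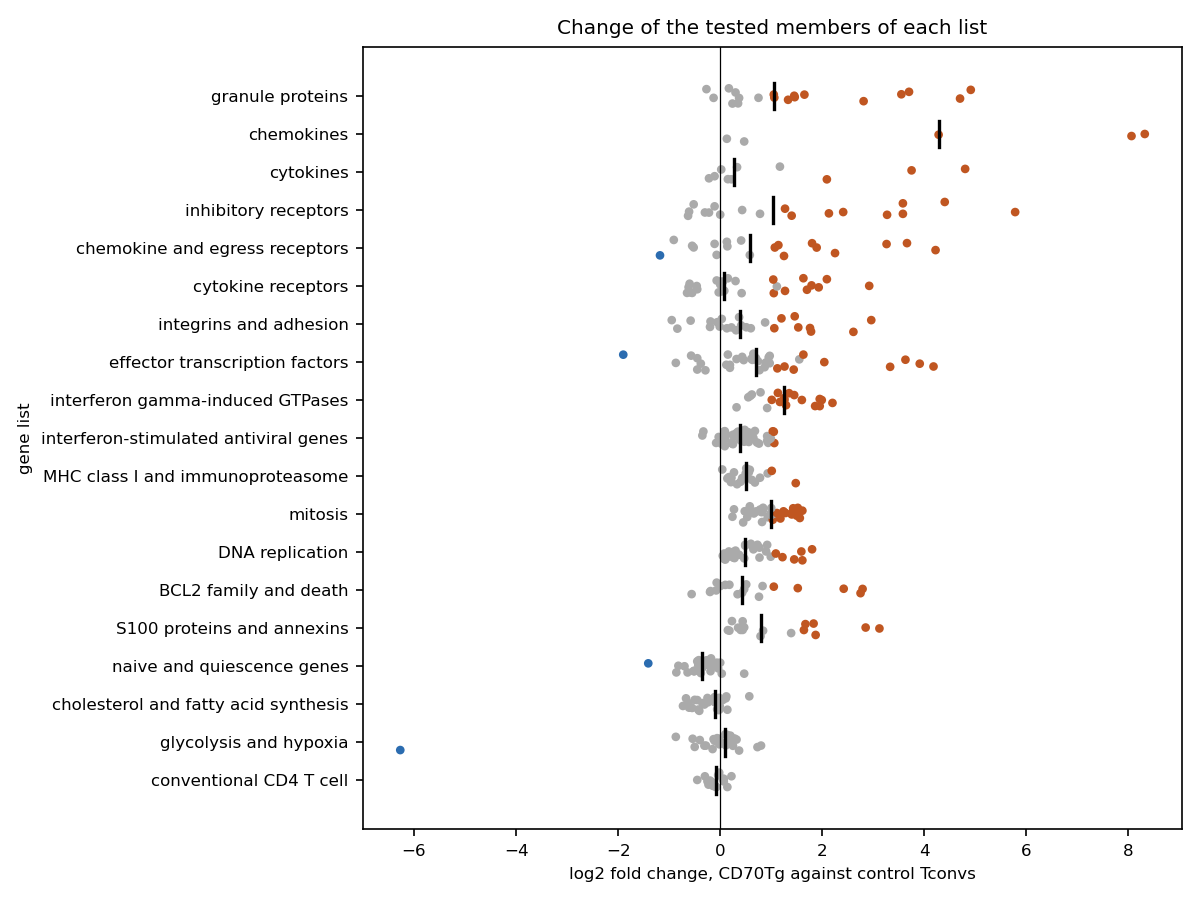
Log2 fold change (horizontal axis, CD70Tg against control Tconvs) of every tested member of 19 gene lists (rows). Orange points are called higher, blue lower and grey not called, the black bar is the list's median, and the points are jittered vertically. The GTPases lie to the right as a group (median 1.26), while in the cytokine receptors 9 called genes stand apart from a median of 0.06.

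Far fewer genes fell. Eno1b, a copy of the enolase gene, gave the largest decrease, from 1138 and 1030 to 15 and 5 (-6.27 ± 0.34, adjusted p = 1.8e-09). Eno1, from which it can hardly be told apart by sequence, had 12909 and 12097 against 14602 and 14153, so that the split of reads between the copies is uncertain. Gm5815 went from 61 and 65 to 3 and 2, at or under 3 reads, an at least 11.5-fold lower level. Chdh, the choline dehydrogenase of mitochondria, fell from 151 and 216 to 29 and 33 (-2.37 ± 0.31, adjusted p = 6.3e-05). Asns, asparagine synthetase, had 256 and 203 against 44 and 92. Sp6 and Gm11532, which overlap in most of their exons, fell together (198 and 193 against 41 and 67 for Sp6). Pou2af1, the coactivator OBF-1 of B cells and follicular helper cells, had 733 and 459 against 199 and 143 (-1.75 ± 0.30). Decreases were also found for Adh1 (566 and 551 against 179 and 125), Aqp9 (116 and 166 against 38 and 23), G0s2 (214 and 183 against 41 and 55) and Nfam1 (171 and 214 against 58 and 40), of which each lost its call without F1, F3 or F4. Gm13546 (415 and 436 against 119 and 115) did so too. Outside the rule for named genes, Ddit4, an inhibitor of mTORC1, was picked for its high level among the genes that fell, with 11339 and 11260 against 5406 and 3358 (-1.41).

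Genes of naive and resting T cells mostly changed by less than 2-fold. Of 29 tested, 1 was called lower and 0 higher, but 9 had an adjusted p-value under 0.05 with a lower level and 1 with a higher, and the median was -0.36. Both CD70Tg libraries were below both controls in 21 of the 29, against 21.7% of all genes. The member called was Dapl1, with 2502 and 2857 against 1150 and 874 (-1.41 ± 0.25). Tcf7, the factor TCF-1, had 43076 and 40413 against 36343 and 28016, and Lef1 17214 and 13874 against 12899 and 9967. Igfbp4 had 23323 and 22321 against 14821 and 11276. Bcl2, in contrast, had 2512 and 2480 against 3492 and 3445, and Klf2 was level, at 11956 and 12384 against 13873 and 11070. Metabolic genes gave few calls. Of 29 glycolysis and hypoxia genes only Eno1b was called, and of 27 cholesterol and fatty acid synthesis genes 0 were called by limma, with 1 higher and 3 lower at an adjusted p-value under 0.05 of any fold and a median of -0.11. In 14 of these 27 both CD70Tg libraries were below both controls.

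Markers of other T lineages moved as well. Zbtb16, which encodes PLZF, the defining factor of invariant NKT cells, had 119 and 151 in controls and 29 and 19 in CD70Tg Tconvs (-2.28 ± 0.61, adjusted p = 0.023), and its call was lost whenever any 1 library was left out. Klrb1c, the NK1.1 receptor of NK and NKT cells, went from 403 and 423 to 75 and 68 (-2.45 ± 0.48, adjusted p = 0.0027). Gm44511, all of whose exons lie within Klrb1 genes, had 110 and 134 against 32 and 17, a call lost without F1, F3 or F4. The invariant NKT segments Trav11 and Trav11d were near the floor, at 8 to 15 in controls and 0 to 3 in CD70Tg Tconvs. Ncr1, specific to NK cells and innate lymphoid cells, was at 0 in 3 of the libraries and at 2 in F4. Of the γδ T cell genes, Tcrg-C4 was called lower (83 and 143 against 44 and 35), a call lost without any 1 library, and Trdc had 208 and 247 against 297 and 207. On the NK cell list of 12, which summed to 2210 and 2126 in controls and 3699 and 4657 in CD70Tg Tconvs, Gzma, Prf1 and Itga2 (not without F4) rose, while Klrb1c fell. The iNKT list of 12 summed to 14768 and 14847 against 22799 and 30961, of which Il2rb and Cxcr6, also made by effector T cells, rose, neither being called without F4 and Il2rb not without F1, and 4 being called higher without F2.

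Cd8a rose strongly, from 17 and 28 to 508 and 608 (4.38 ± 0.39, adjusted p = 8.3e-07). Cd8b1, which encodes the chain that conventional CD8 T cells pair with it, had 703 and 653 against 1055 and 982 (0.58, adjusted p = 0.037) and did not pass the fold threshold. Cells with CD8β had been removed before the sort. The part of CD8 T cells in the Cd8a values was not tested.

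Defining genes of most other lineages were low. Of the B cell list, Ms4a1 and Pax5 had at most 48 in any library, and the list, which is mostly Ighm, summed to 12048 and 12738 in controls and 11730 and 10318 in CD70Tg Tconvs. The macrophage and monocyte list of 18 summed to 3734 and 4443 against 4749 and 8554. Ccr2 and Cd68 were called higher (4 genes without F2), whereas Csf1r had 449 and 417 against 309 and 380 and Lyz2 788 and 835 against 436 and 643, and Cd14 and Fcgr1 had at most 11. The erythroid list summed to 1090 and 1781 against 1524 and 1344, with Car2 called higher (166 and 185 against 447 and 336), a call lost without F1 or F2. No gene of the neutrophil, mast cell and basophil, or platelet lists reached the minimum for the test, and their sums lay between 27 and 74, 64 and 117, and 22 and 43. Of the plasma cell list, which summed to 1433 to 2083, only Txndc5 was tested, and it was not called. The Treg list of 15 held Itgae and Tnfrsf4 called higher and Gpr83 called lower (646 and 714 against 424 and 259, not without F3 or F4), and its sum was 17047 and 15253 against 14372 and 17858. Genes of Th2, Th17 and Tfh cells gave Il1rl1 and Ccr6 (not without F1) higher and Pou2af1 lower of 12, with 4 higher without F1 and 2 lower without F3. On the NK receptor list of 24, of which 8 were tested, Klrg1 rose and Klrb1c fell.

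Both CD70Tg libraries lay on 1 side of the controls in every called gene, while the size of the change differed between them. F4 was above F2 in 436 of the 464 genes called higher (94%), by a median of 0.64 on the log2 scale, against 0.17 in all genes tested. With TMM factors the medians were 0.47 and 0.00, and F4 was above F2 in 410 of the 464. Genes called higher had a gap over 2-fold between F2 and F4 in 75 cases, F4 being the higher in all 75, and between the controls in 35. With TMM factors the 75 became 38. The 62 genes called lower were higher in F4 in 25 and their median gap was -0.17. The gap exceeded the change itself in 5 of the 464 and in 1 of the 62. To set the libraries side by side without a shared control, F2 was compared with F1 and F4 with F3, and then F2 with F3 and F4 with F1. In the first pairing 349 genes were over 2-fold higher in F2 and 812 in F4, with 316 in both (90.5% of the first and 38.9% of the second). In the second pairing the numbers were 464, 667 and 378 (81.5% and 56.7%). Over 2-fold lower were 157 and 179 genes with 56 in both (35.7% and 31.3%), and 104 and 181 with 52 in both (50% and 28.7%). Opposite changes of over 2-fold occurred for 15 and for 6 genes. Across the 11650 genes, which are not independent, Pearson's r between the 2 differences was 0.73 and 0.78.

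**Figure D4:**
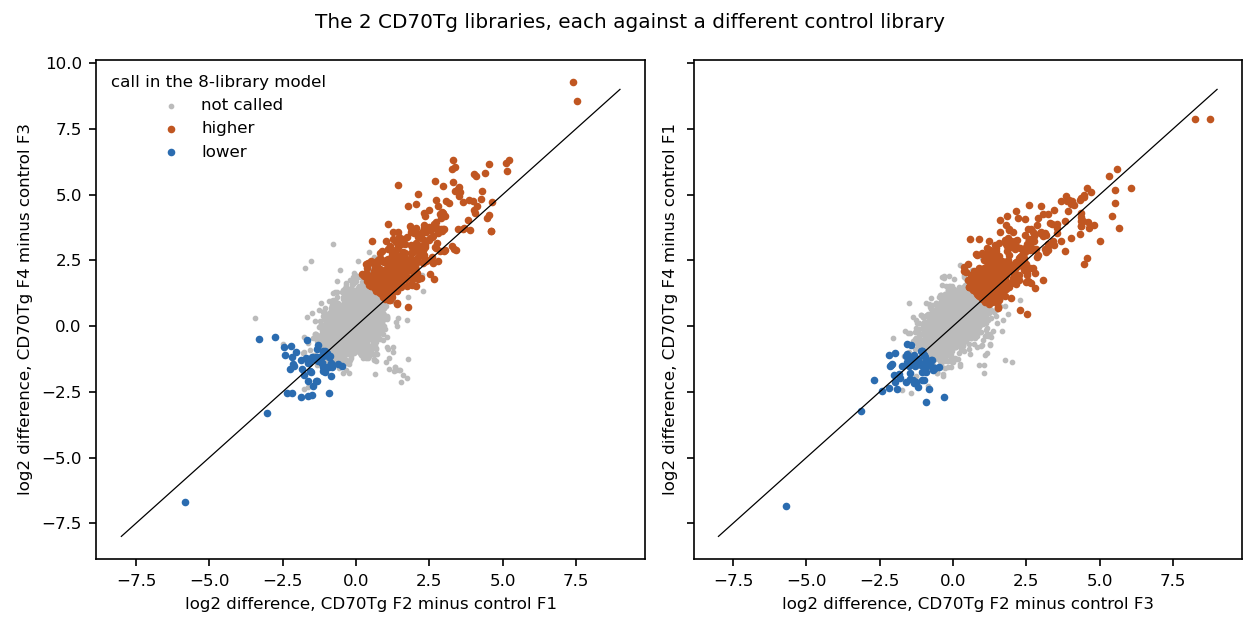
Log2 difference of CD70Tg F4 from 1 control library (vertical axes) against that of CD70Tg F2 from the other (horizontal axes) for the 11650 tested genes in the 2 ways to set each CD70Tg library against a control library of its own. The line marks equal differences, and the genes called higher lie mostly above it, with medians of 1.30 and 2.11 on the left and of 1.47 and 1.93 on the right.

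The excess of F4 differed between lists. Of all lists it was largest in mitosis (median gap 0.89), followed by cytokines (0.75), MHC class II (0.70), NK receptors (0.63) and DNA replication (0.60), and small in the GTPases (0.09) and cytokine receptors (0.03), against 0.17 in all genes. In the naive genes it was -0.33, which means that F4 was the lower library in 26 of 29. The genes with the largest gaps among those called were Serpinb1a, an inhibitor of granule proteases (21 and 30 in controls, 101 in F2 and 422 in F4), Jun, its overlapping partner Junos (32 and 59, 113 and 364), Adam8 (34 and 47, 176 and 554), Metrnl (38 and 24, 110 and 343), S1pr5, the potassium channel Kcnj8 (9 and 19, 81 and 251), Ifng, ENSMUSG00000062593 and Gm45717 (26 and 32, 133 and 389). In each of these 10, F2 still lay above both controls and F4 above F2. Calls that were lost without F4 among them were those of Serpinb1a, Junos, Metrnl, S1pr5 and Kcnj8.

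**Figure D5:**
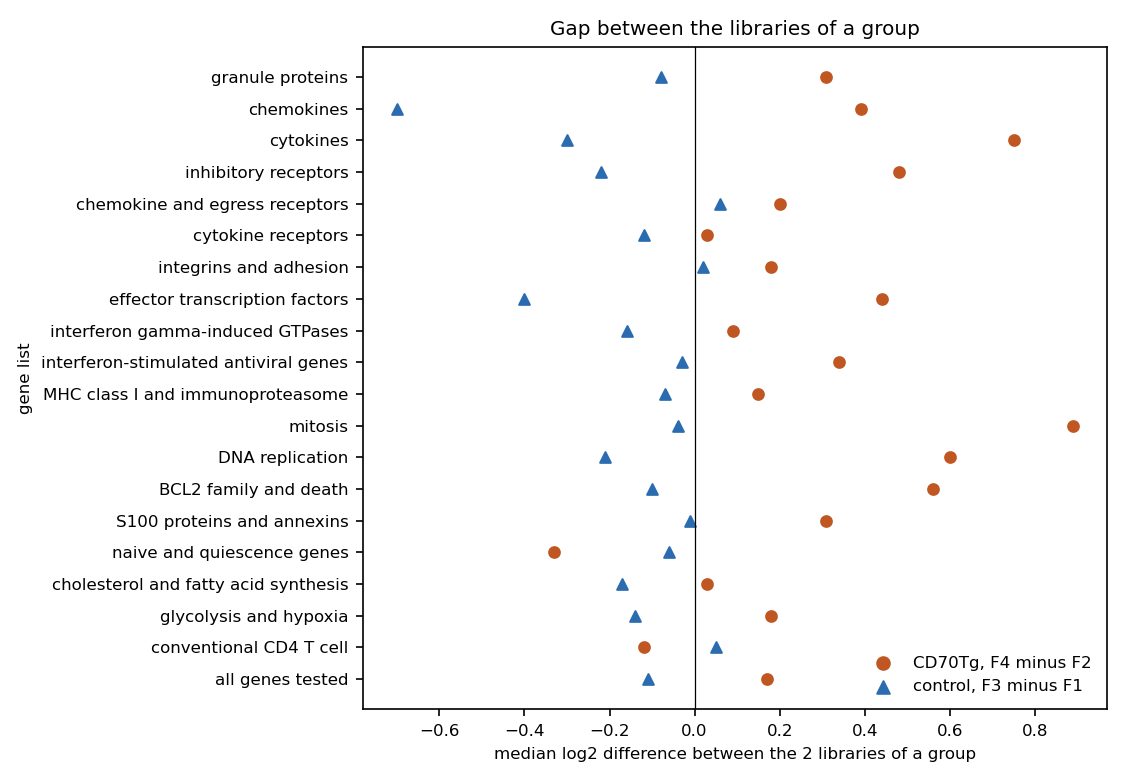
Median log2 difference between the 2 libraries of a group (horizontal axis) over the tested members of the lists named in the rows and over all genes tested, for CD70Tg (circles, F4 minus F2) and control Tconvs (triangles, F3 minus F1). Mitosis genes lie farthest to the right for CD70Tg (0.89), and of the lists shown naive genes are the circle farthest to the left (-0.33).

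There were 78 genes that changed by more than 1 on the log2 scale without being called. The largest were A530021J07Rik (730 and 716 against 211 and 131, adjusted p = 0.058), its overlapping neighbour 5930435M05Rik (192 and 166 against 58 and 29), Lancl3 (15 and 17 against 90 and 80), Ms4a4a (11 and 34 against 73 and 92) and Mcoln2 (41 and 24 against 104 and 141). Their groups did not overlap. All 5 were called in the fit of the 4 Tconv libraries alone, with a pseudocount of 20 and with limma-voom, the lowest adjusted p-value of A530021J07Rik over the alternatives being 9.6e-07.

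The same contrast in Tregs was set beside that of the Tconvs by the test of the difference. It passed an adjusted p-value of 0.05 in 130 of the 11650 genes (1.12%), with a change in Tconvs above that in Tregs in 108 and below it in 22. Genes had entered by their values in the Tconv libraries alone, so that a gene raised only in Tregs could be missing. The split into 108 and 22 therefore depends on this filter. Among the 464 genes called higher in Tconvs, which were picked for their change in these cells, it did so in 81, and the change was larger in Tconvs in 80 of them. The Treg libraries were shallower, with 1.91 to 4.57 M reads on genes. Adgrg1 changed by 5.66 in Tconvs and by 0.43 in Tregs on the log2 scale (difference 5.23, adjusted p = 3.0e-05), Havcr2 by 5.78 and 1.46, Entpd1 by 3.27 and 0.66 and Il10 by 4.80 and 1.08. The levels of these genes in Tregs were not compared. The median over the GTPases was 1.26 in Tconvs and 0.68 in Tregs, and the difference passed in 1 of the 20. For the mitosis genes the medians were 1.00 and 0.45 and the difference passed in 0 of 38. Of all 11650 genes, 1238 had an unadjusted p-value of the difference under 0.05.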

How the data were processed

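RNA was sequenced from sorted Tconvs and Tregs (Ovation SoLo RNA-Seq, paired-end), 2 libraries in each of 4 groups. Per the submitters' processing notes and the methods, reads were trimmed with Trimmomatic 0.36, mapped to mm10 with STAR 2.5.3 and counted with HTSeq 0.9.1. The authors deposited a score per gene, scaled to 20 M reads in each library with every fraction rounded up, and a test for raw counts was therefore not used. Columns carry library names that match no replicate number of the sample titles and were mapped to groups only. The value of 1 read in each library was estimated from the steps of the low values, and 3 reads were taken as the floor, which covers counting error only. The 4131 clone-named rows were left out, as the steps between their low values are those of another column. Of 97 names on more than 1 row, the row with the largest total kept the name.

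The score was tested as log2(value + 5) with limma 3.58.1 in R 4.3.3 (linear model with a trend, 1 coefficient for each of the 4 groups of 8 libraries, prior degrees of freedom 12.4). Fold changes are on this scale and understate the change of low genes. Adjustment was by the Benjamini-Hochberg procedure over the 11650 genes, and all adjusted p-values are limma's. In simulated data, 172 of 200 genes changed 4-fold were recovered (86%), with 2 false calls among 174. The noise was drawn for each gene on its own, with a capped spread and no shift of a whole library. These counts therefore do not carry over to the real libraries, of which F4 stood apart. The genes, lists and tests were chosen with earlier results of these data known. Named were 5 markers, the 15 largest increases and 15 largest decreases among called genes that the paper does not name, up to 6 called members of each list, the 10 called genes with the largest gap between the CD70Tg libraries, the 5 largest changes that were not called, and Foxp3, Cd4, Cd8a, Cd27 and Cd70. Other genes were picked after their values were seen. A few genes are not reported here. Gene families were defined by symbol, and AP-1, p53 and ATF4 target sets by hand, after values were seen. The families also included GIMAP GTPases, histones, T cell receptor V segments, potassium channels, synaptotagmins and RGS proteins. Positions and exon overlaps were taken from GENCODE M21 (GRCm38). It is not stated whether counting used strand, and genes whose exons overlap are uncertain.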

Additional observations from a re-analysis of the deposited data

Results flagged for a closer look

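The test of the difference between the change in Tconvs and the change in Tregs passed an adjusted p-value of 0.05 (limma) in 31 of the genes named. The change was larger in Tconvs, in log2 units, for Adgrg1 (5.23), Havcr2 (4.31), Il10 (3.72), Gcg (3.62), Ccl3 (3.16), Serpinb1a (3.16), Ncald (3.14), Gzmb (3.10), Gas7 (3.02), Cd38 (2.62), Entpd1 (2.61), Rgs16 (2.47), Il1rl1 (2.45), Runx2 (2.12) and Klrg1 (2.09). Smaller differences of the same sign were found for Csf1 (1.91), Rgs1 (1.87), Bhlhe40 (1.86), Ahnak (1.71), Adam19 (1.69), S100a4 (1.62), Lamc1 (1.53), Ccrl2 (1.52), Prdm1 (1.38), Gbp3 (1.32), Il12rb1 (1.27), Il10ra (1.17), H2-Q6 (0.99) and Il2rb (0.91). Car2 rose more in Tregs (-2.25), with a change of 3.38 there and of 1.12 in Tconvs. For Eno1b the decrease was larger in Tconvs (-3.18), with a change of -6.27 there and of -3.08 in Tregs. These genes were named for their change in Tconvs. The test compares changes, and the levels of these genes in Tregs were not compared. For a cluster with Prdm1 and Tigit that rose mainly in Tconvs, the paper reports similar end levels in Tconvs and Tregs.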

How the results depend on the processing

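The 464 higher and 62 lower genes became 259 and 24 without a minimum value and 826 and 250 without a threshold on the fold change. Leaving out each library in turn gave 255 to 613 higher genes, the lowest without F4, and 35 to 86 lower genes, the lowest without F1 (38 without F4). The lower genes numbered 95 in a fit of the 4 Tconv libraries alone, 158 with limma-voom on estimated reads and 37 at an adjusted p-value under 0.01. The other alternatives (pseudocounts of 1 and 20, a value above 10 in every Tconv library, TMM and median-of-ratios factors, clone-named rows kept, and 1 row per identical set, the last added after seeing the data) stayed within 1.5 times of both counts. The Treg difference passed in 78 genes with limma-voom against 130. Genes with a gap over 2-fold between the CD70Tg libraries were 194, and 1043 without a minimum value. Of 140 named genes tested, 74 kept direction and side of the threshold under each of the up to 13 alternatives run for them (genes without a value above 10 in every Tconv library were left out of that alternative) and 60 lost their call under at least 1, 54 of them without a minimum value and 38 without F4. Foxp3, which was not called, had -0.02 and ranged from -0.29 (without F1) to 0.24 (without F3), with 0.04 without F2. No paired analysis was possible because the columns carry no replicate number of the sample titles. With 2 libraries a group and between 6.94 and 33.33 M reads, small changes of genes near the minimum value cannot be resolved.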

Other observations

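Further gene families were read after values had been seen, and are given as counts with no test. Some of their members, such as Rgs1 and Rgs16, are also in the lists above, so that their calls are counted again here. Of 15 tested genes with symbols of potassium channels and their partners (Kcn) 4 were called higher and 0 lower, Kcnip3 and Kcnj8 among them, but the median was -0.33, and both CD70Tg libraries lay below both controls in 8 and above them in 6. Of all tested genes, 21.7% and 23.3% showed these patterns. Of 4 synaptotagmins and synaptotagmin-like genes, which act in vesicle release, 3 were called higher, of 8 RGS genes 3, of 8 AP-1 factors 2, of 4 IFITM genes 3 and of 9 GIMAP GTPases 1, with 0 lower in each family. Without F4 the IFITM and AP-1 families had 1 call each and the GIMAP family 0, and the AP-1 factors had 4 without F1 and 5 without F2. Among 16 targets of ATF4, the factor of the amino acid stress response, Asns and Ddit4 were called lower and 0 higher, and the median was 0.00. Of 74 T cell receptor V segments 2 were called lower and 0 higher (median -0.20), with 0 lower without F1 and 1 without F2 or F4, and of 6 histone genes and 79 cytosolic ribosomal protein genes 0 were called by limma, with 0 and 1 at an adjusted p-value under 0.05 of any fold.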
